A study of Mus musculus with 8 samples.

Results

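The genes Ccl2, Ccl3, Ccl4, Ccl5, Ccl6, Ccl9 and Ccl24 encode CC chemokines. Their transcripts were counted in macrophage, monocyte, neutrophil, basophil and lymphocyte classes of mouse erythroblastic island preparations. The genes were chosen by name and not by level, and they are 7 of the 19669 genes in the table. All 7 had a row. In at least 1 class, 6 of them reached 20 CPM (UMIs of a gene per 1000000 UMIs of the class, a UMI being 1 counted transcript molecule). Ccl24 did not.

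CC chemokines are small secreted proteins that bind G protein-coupled receptors on leukocytes and guide these cells along gradients. Ccl2 acts on Ccr2, the receptor that lets monocytes leave the marrow. Ccl3 and Ccl5 act on Ccr1, and Ccl4 is a close relative of Ccl3. Ccl6 and Ccl9 are rodent ligands of Ccr1, and Ccl24 is an eotaxin that acts on Ccr3. In the marrow and the red pulp of the spleen, the island macrophage sits among red cell precursors and takes up the nuclei they expel, and monocytes and granulocytes lie close by.

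The cells came from male mice of the lupus-prone strain Sle1.Yaa, primary and untreated. Island cells were purified on albumin gradients and freed with EDTA and gentle force. A human TLR8 transgene marked the mice labelled anemic, with 2 bone marrow and 2 spleen libraries. Mice without the transgene were labelled non-anemic, with 3 bone marrow libraries and 1 spleen library, so all groups shared the Sle1.Yaa background. The labels used here do not give the promoter of the transgene or the ages. The columns of the table carry barcodes with no library, so the 24942 cells form 1 pooled sample. No transgenic cell could be compared with a control cell, and no marrow cell with a spleen cell, for any of the genes.

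Barcode order restarted 7 times, which gave 8 runs of 447 to 6787 cells and 6195876 to 48442321 UMIs, with a median of 7554 UMIs per cell overall. The runs are numbered 1 to 8 in table order as names only. They served to show spread, wherever a class had at least 20 cells in a run. Of all cells, 1031 (4.13%) had a barcode found in more than 1 run, and 12 barcodes were in all 8. Such cells were concentrated in the low-depth Cd34-led cluster (462 cells), and 260 lay in the 16 source classes. Without them the highest class of each of the 7 genes was the same, and so were the counts in all 5 comparisons of classes. Scrublet called 17 doublets (0.0682%), too few for a caller that worked, so no cell was removed.

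Clustering without the CC ligand and receptor genes gave 32 clusters, joined into 24 classes. Names end in -like where they rest on marker lists, and otherwise give the leading gene. The defining markers bore the main names out. Prss34 and Mcpt8, basophil proteases, stood at 24633 and 15139 CPM in the basophil-like cells. The immature neutrophil-like cells had 7761 CPM of Ltf, a granule protein, and the mature ones 2846 CPM of Il1b. The Mmp8-led neutrophil cluster had 9139 CPM of Ltf, so this gene does not separate it from the immature cells. Cd5l and Vcam1, macrophage genes, were at 3061 and 4376 CPM in the Cd5l-led macrophage-like cells. The Fcgr4-led phagocyte cluster held equally many markers of macrophages and of non-classical monocytes (3 each) among its 10 leading genes and keeps a neutral name. Among its 50 leading genes were 8 non-classical monocyte and 4 macrophage markers, and Cd5l and Vcam1 were at 105 and 69.5 CPM. The T cell-like class also held NK cells, with 70.0 CPM of Ncr1.

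On the GRCm38 genome (GENCODE M21), 6 of the genes lie on chromosome 11. Ccl5 (83525778 to 83530518), Ccl9 (83572919 to 83578636), Ccl6 (83587882 to 83593087) and Ccl3 (83647844 to 83649355) are on the minus strand. Ccl4 (83662584 to 83664683) is on the plus strand. Ccl6 lies 9245 bases from Ccl9, and Ccl4 lies 13.2 kb from Ccl3. Ccl2 (82035571 to 82037453, plus strand) is 1488 kb away from Ccl5, and Ccl24 is on chromosome 5 (135569937 to 135573049, minus strand). The RefSeq promoter table (GRCm38.p6) holds Ccl3, Ccl6 and Ccl9. The 120 bases before each start are shown because Ccl6 and Ccl9 are neighbours on 1 strand whose levels parted in neutrophils, and Ccl3 led in basophils. They span chr11:83649379-83649498, chr11:83593088-83593207 and chr11:83578637-83578756. Letters that match a searched motif are in capitals, read 5′ to 3′ on the strand of the gene.
Ccl3: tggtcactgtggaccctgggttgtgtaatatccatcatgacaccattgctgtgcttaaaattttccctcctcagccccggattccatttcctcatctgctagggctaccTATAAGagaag
Ccl6: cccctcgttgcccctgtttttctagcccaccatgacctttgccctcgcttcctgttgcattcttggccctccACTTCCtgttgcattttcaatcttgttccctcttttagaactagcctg
Ccl9: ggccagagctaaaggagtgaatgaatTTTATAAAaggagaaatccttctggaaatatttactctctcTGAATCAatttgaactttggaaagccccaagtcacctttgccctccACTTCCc
Both strands of the 250 bases before each start were searched. The motifs and the shares of 32851 promoters that hold them were GGGANNTCC (3.59%) and the same string with 1 more N in its middle (3.86%) for NF-kB, TGANTCA for AP-1 (6.75%), TTGCNNAA for C/EBP (9.56%), GGAAGT for ETS factors (19.7%), TATAAA (12.4%) and TATAAG (6.65%). GGAAGT had a match in all 3, on the minus strand. TGANTCA matched in Ccl9, 53 bases before its start. TATAAG began 11 bases before the RefSeq start of Ccl3, which lies outside the GENCODE span given above. TATAAA matched Ccl9 on both strands of 1 overlapping stretch from 94 bases before the start. Farther out, TATAAG also matched Ccl3 (163 bases before) and Ccl9 (236 bases), and TATAAA matched Ccl9 (224 bases). The capitals of Ccl6 are the GGAAGT match alone. Neither NF-kB string nor TTGCNNAA was found in these windows. A match is a description of letters and no evidence of binding.

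Each of the 6 genes had a different spread over the classes. T cell-like cells, 3.81% of all cells, held 92.2% of the Ccl5 UMIs, and classical monocyte-like cells, 3.27% of all cells, held 79.0% of the Ccl2 UMIs and 55.4% of the Ccl9 UMIs. Basophil-like cells were 0.505% of all cells and held 20.4% of the Ccl3 UMIs and 10.1% of the Ccl4 UMIs. The largest share of Ccl3 was 20.6%, in classical monocyte-like cells, and that of Ccl4 was 25.3%, in the Fcgr4-led phagocyte cluster. Ccl6 was divided between mature neutrophil-like (32.8%) and classical monocyte-like cells (32.2%).

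**Figure D1:**
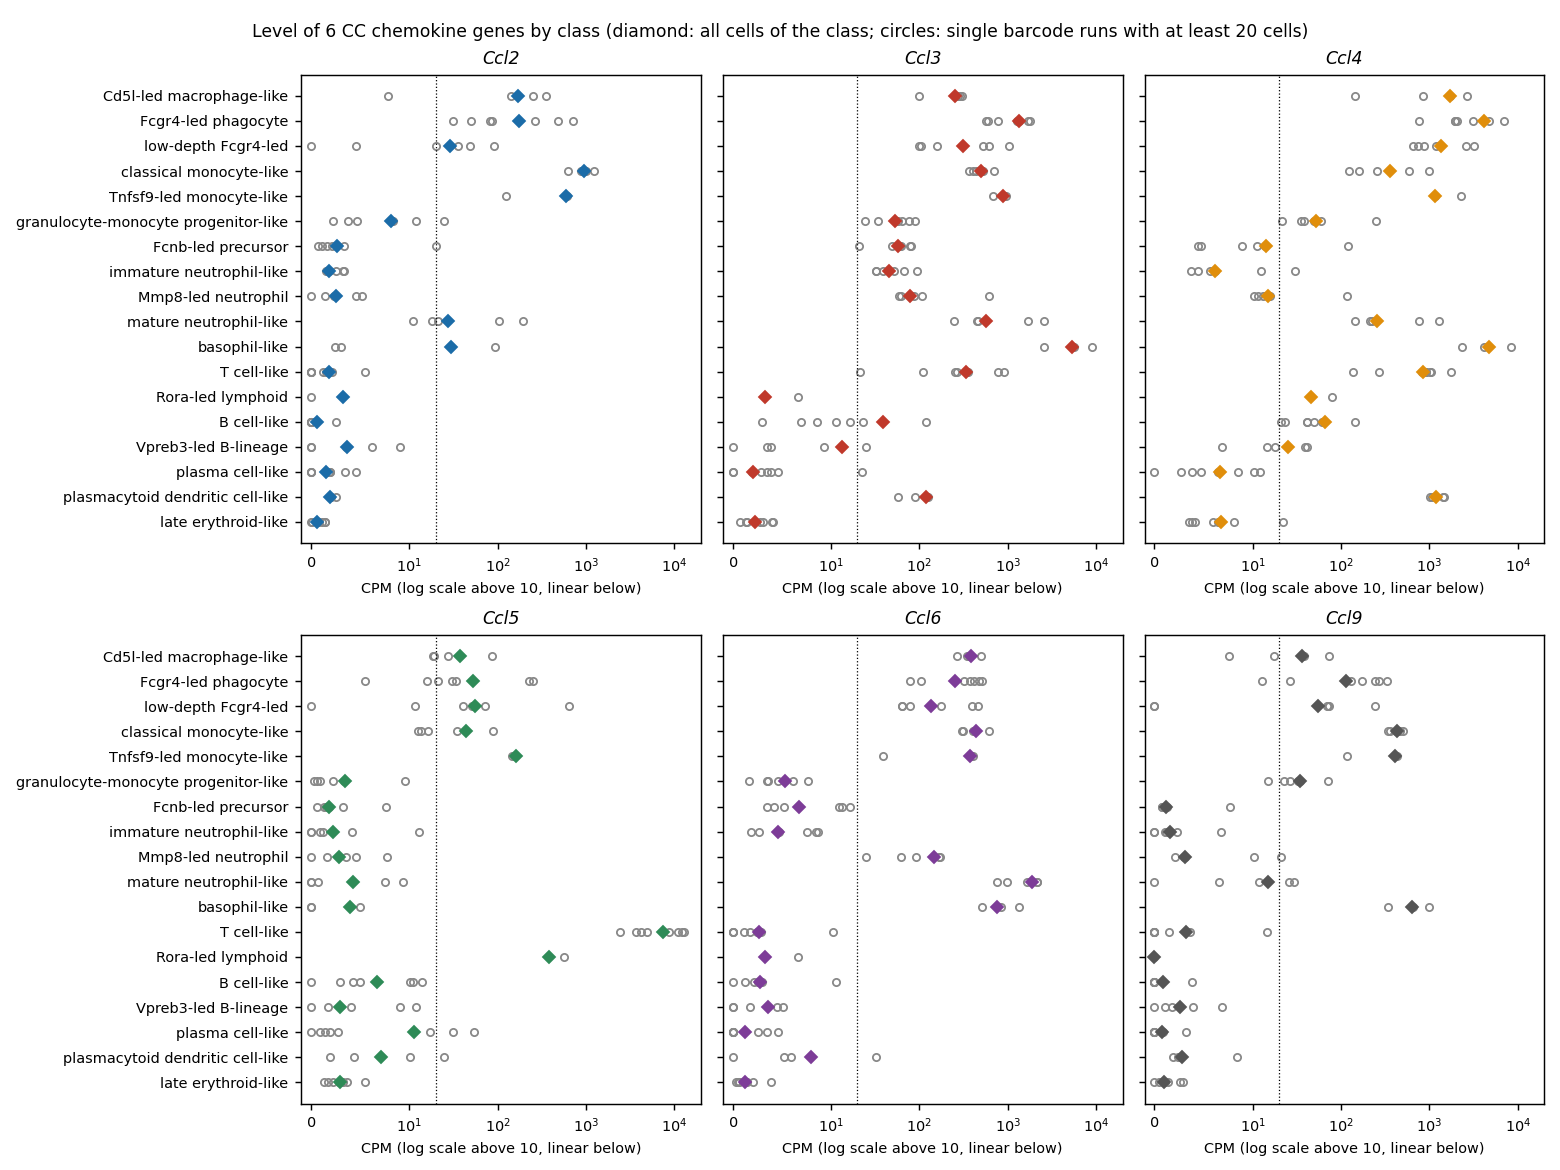
Level of 6 CC chemokine genes in 18 classes. The x axis is CPM, logarithmic above 10 and linear below, diamonds are all cells of a class and circles are single runs with at least 20 cells, and the dotted line marks 20 CPM. Ccl5 stands at 7428 CPM in T cell-like cells. Every gene is under 7 CPM in the pooled late erythroid-like cells, whose highest single run has 21.8 CPM of Ccl4.

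**Figure D2:**
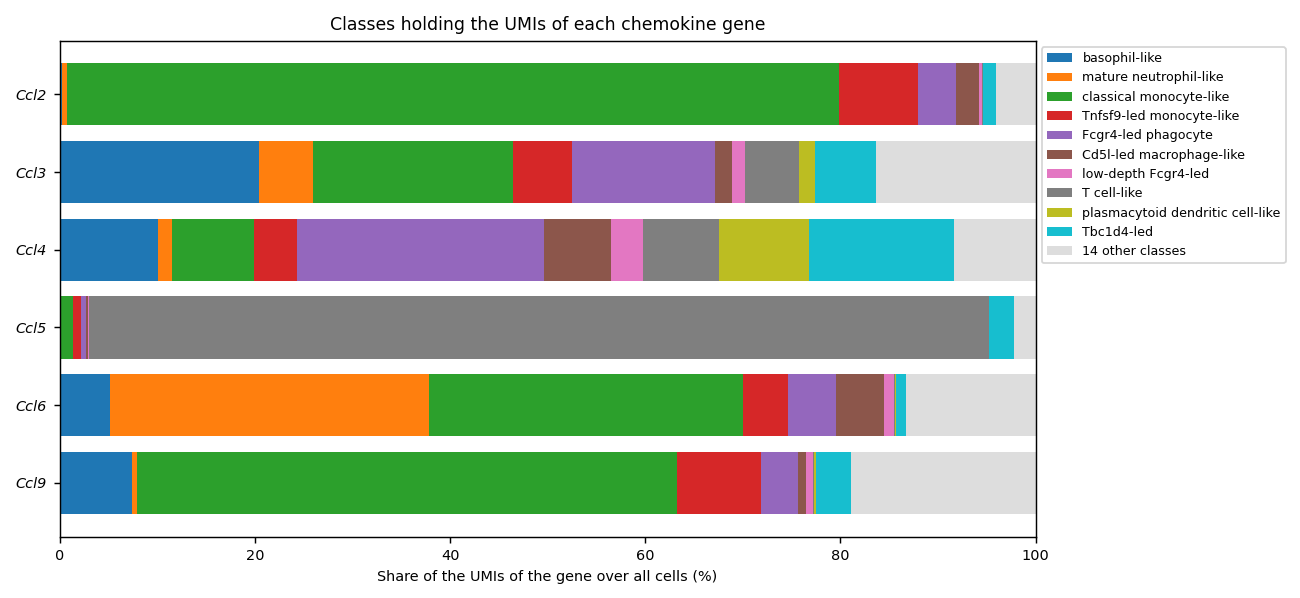
Share of the UMIs of each gene, in percent of its UMIs over all cells, that lies in each of 10 classes, with the other 14 classes in light grey. The T cell-like class holds 92.2% of the Ccl5 UMIs, while no class holds more than 25.3% of the Ccl4 UMIs.

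Late erythroid-like cells, which are not known to make these chemokines, served as a guide to the background level. They had 0.640 CPM of Ccl2, 2.25 of Ccl3, 6.81 of Ccl4, 2.92 of Ccl5, 1.31 of Ccl6 and 0.973 of Ccl9, over 4079 cells with a median of 8091 UMIs. After thinning every cell to 1000 UMIs, the share of late erythroid-like cells with a UMI was at most 0.683% (Ccl4). Over runs of these cells Ccl4 ranged from 3.55 to 21.8 CPM. Globin was a large part of their totals, with Hbb-bs at 477386 CPM in 1 of their clusters. Background may thus be higher in classes with little globin, which was not tested. Levels of a few CPM in other classes are of the pooled size and are not read as expression. Intervals given for levels are exact 95% Poisson intervals and cover counting error only.

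Ccl2, the monocyte attractant, was led by classical monocyte-like cells at 949 CPM (interval 933 to 966). The 5 runs that held enough of these cells gave 893, 628, 1239, 1004 and 877 CPM. All 5 were above every run of every other class, except that 1 run of Fcgr4-led phagocytes, at 718 CPM, exceeded the lowest of them. After thinning, 44.4% of classical monocyte-like cells had a Ccl2 UMI (83.2% unthinned), against 0.0253% of late erythroid-like cells (0.564% unthinned). The Tnfsf9-led monocyte-like cluster followed at 596 CPM, with 614 and 126 CPM in its 2 runs. Of its 446 cells, 81.2% came from run 6, so this cluster and that run cannot be told apart.

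Fcgr4-led phagocytes and Cd5l-led macrophage-like cells had 176 and 171 CPM of Ccl2, and their counting intervals overlapped. Their runs spread widely, from 31 to 718 CPM (median 87.7 over 7 runs) and from 7.85 to 358 CPM (4 runs). In the Cd5l-led cells, 1 run was near background and the other 3 were at 141, 254 and 358 CPM. The 48 Cd5l-led cells with the most Ccl2 UMIs held 91.8% of them, and the 45 highest Fcgr4-led cells held 90.2% of theirs. In both classes the level thus came from few cells.

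Ccl24, the eotaxin, had 37 UMIs in 19 cells of the whole table. Classical monocyte-like cells held 14 of them (1.01 CPM), Tnfsf9-led monocyte-like cells 13 (5.74 CPM), and the Cd5l-led macrophage-like and stromal-like cells 4 each (1.70 and 11 CPM). Basophil-like, T cell-like, B cell-like and mature neutrophil-like cells had none. In T cell-like cells, the 95% interval around that count of 0 reached 0.667 CPM. Ccl24 entered no comparison.

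Ccl3 was highest in basophil-like cells, at 5411 CPM (interval 5284 to 5540). The 3 runs with at least 20 of these cells gave 9104, 5603 and 2582 CPM, all above every run of every other class except 2603 CPM in 1 run of mature neutrophil-like cells. The gene was spread over the class, with a median of 48 UMIs per cell. Fcgr4-led phagocytes came next at 1346 CPM, with 7 runs from 562 to 1801 CPM (median 1265). Tnfsf9-led monocyte-like cells had 895 CPM, mature neutrophil-like cells 567, classical monocyte-like cells 501 and T cell-like cells 334. The run ranges of neighbours in this order overlapped from the Fcgr4-led phagocytes down.

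Mature neutrophil-like cells differed widely between runs in Ccl3. Runs 1, 3 and 4 gave 246, 457 and 452 CPM, and runs 6 and 7, with 72 and 35 of these cells, gave 2603 and 1697 CPM. The same 2 runs were high for Ccl4 in these cells, at 1293 and 766 CPM against 146 to 227 CPM in the other 3. For Ccl6 they were not, at 759 and 1673 CPM against 983 to 2160 CPM. Which tissue or genotype those runs came from is unknown.

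Ccl4 was at 4701 CPM in basophil-like cells (8426, 4164 and 2361 CPM in 3 runs) and at 4095 CPM in Fcgr4-led phagocytes. The 7 runs of the phagocytes spanned 763 to 7068 CPM with a median of 2032, and 61.9% of their UMIs came from run 7. The 2 classes did not differ beyond that spread, and without run 3 the phagocytes were the higher of the pair. Cd5l-led macrophage-like cells had 1732 CPM (848, 143, 1724 and 2641 CPM in 4 runs). The Tbc1d4-led cluster, whose leading genes include Flt3 and class II genes, had 1717 CPM, and the low-depth Fcgr4-led cluster had 1361 CPM.

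Plasmacytoid dendritic cell-like cells, which carry Siglech at 1842 CPM, had 1176 CPM of Ccl4 in a narrow range of 1028 to 1470 CPM over 4 runs. T cell-like cells had 839 CPM, from 138 to 1753 CPM over 8 runs. In classical monocyte-like cells Ccl4 stood at 360 CPM, and 83.7% of it was in 82 of the 816 cells, with runs from 123 to 981 CPM. There, 36.9% of the cells had a Ccl4 UMI, against 76.5% with a Ccl3 UMI. Thinned to 1000 UMIs, these shares were 13.2% and 32.4%.

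In the first comparison of classes, Cd5l-led macrophage-like cells were set against Fcgr4-led phagocytes. Differences are log2 ratios of CPM after adding 10 to both, for genes with at least 20 CPM in either class. A difference of at least 2-fold was counted, and no test was possible in 1 pooled sample. Of the 6 genes that passed, 3 were lower in the Cd5l-led cells and none was higher. Over all 6167 genes that passed, 15.2% were past 2-fold, 6.31% lower and 8.87% higher. The log2 difference of Ccl3 was -2.38, with 4 of 4 runs lower (-2.60 to -2.03). That of Ccl4 was -1.24, also lower in 4 of 4 runs. That of Ccl9 was -1.41, but 1 of the 4 runs was higher. Ccl6 (0.60), Ccl5 (-0.38) and Ccl2 (-0.04) stayed under 2-fold. Within runs, Ccl6 was past 2-fold higher in run 5 (265 against 78.3 CPM) and run 7 (361 against 105 CPM). It was nearly level in run 3 (499 against 512 CPM) and run 6 (348 against 372 CPM). Ccl2 was higher in the Cd5l-led cells in run 7 (254 against 50.1 CPM). It was lower there in run 3 (358 against 718 CPM), run 5 (7.85 against 31 CPM) and run 6 (141 against 268 CPM). Its small pooled difference thus joined runs of opposite sign, and without run 7 the Ccl2 difference was -1.18. Ccl5 was higher in run 5 (27.5 against 5.47 CPM). It was lower in run 6 (85.6 against 252 CPM), run 3 (18.8 against 34.3 CPM) and run 7 (18.9 against 21.3 CPM). The 10 late erythroid markers summed to 36978 CPM in the Cd5l-led cells (5595 to 52685 over runs) and 16624 CPM in the Fcgr4-led cells (1802 to 30653), and their part in the differences was not tested. Leaving globin out of the totals kept the same 3 calls.

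Within the Fcgr4-led cluster, cells with an Ace UMI, a non-classical monocyte gene, numbered 83. They had 641 CPM of Ccl3 and 1051 CPM of Ccl4. The 298 cells with a C1q UMI and no Ace UMI had 1497 and 4786 CPM. Ccl6 went the other way, at 508 CPM in the cells with Ace and 207 CPM in those without. The gates drew on different runs, and run 3 alone held at least 20 cells of both. There Ccl3 was 677 CPM with Ace and 1780 without, Ccl4 422 and 3365 CPM, and Ccl6 748 and 354 CPM, so these 3 genes kept their direction. Ccl9 did not, at 206 and 94.1 CPM pooled and 219 and 273 CPM in run 3. Ccl2 was 162 and 188 CPM pooled, but 310 and 1063 CPM in run 3. Such gates depend on depth, and the median was 4776 UMIs per cell with Ace and 7871 without.

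Against classical monocyte-like cells, Cd5l-led macrophage-like cells were lower in Ccl2 (-2.41) and Ccl9 (-3.27) and higher in Ccl4 (2.23). That is 3 of 6 genes past 2-fold, where 27.9% of all genes were, 15.3% higher and 12.6% lower. Only runs 3 and 5 held both classes. Both runs had the same sign for Ccl2 and Ccl9, but for Ccl4 run 3 gave 2.35 and run 5 gave -2.69, so the pooled Ccl4 difference did not hold within runs. Ccl3 (-0.97) was just under 2-fold and passed it when any of runs 1, 2, 6 or 7 was left out (-1.14 without run 7). Within runs 3 and 5 Ccl3 was past 2-fold lower, at 301 against 710 CPM and 98.2 against 443 CPM. Ccl6 differed by -0.16. Without run 7 the differences were -3.10 for Ccl2, 1.54 for Ccl4 and -2.67 for Ccl9.

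**Figure D3:**
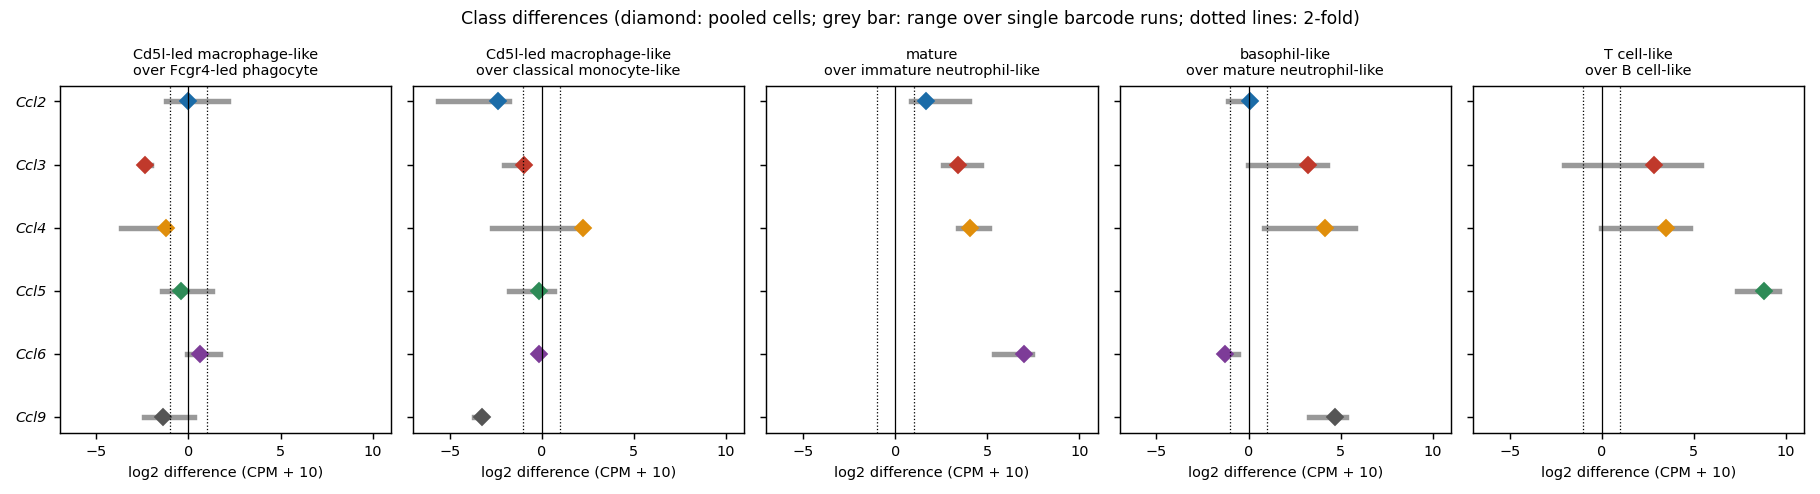
Log2 difference of CPM + 10 for each gene that reached 20 CPM, in 5 comparisons of classes. Diamonds are the pooled cells, grey bars the range over runs holding at least 20 cells of both classes, and dotted lines 2-fold. Ccl6 differs by 7.01 between mature and immature neutrophil-like cells and Ccl5 by 8.80 between T and B cell-like cells, with all runs on 1 side.

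Neutrophils mature from granulocyte-monocyte progenitors through stages marked by primary, secondary and then tertiary granule genes. Along the clusters, Ccl6 stood at 5.38 CPM in granulocyte-monocyte progenitor-like cells, 6.78 in Fcnb-led precursors and 4.59 in immature neutrophil-like cells. It was at 148 CPM in the Mmp8-led neutrophil cluster and 1865 CPM in mature neutrophil-like cells (interval 1819 to 1913). The 5 runs of the mature cells gave 983, 2160, 2156, 759 and 1673 CPM, and none reached down to any run of an earlier stage. After thinning, 71.9% of the mature cells had a Ccl6 UMI, against 12.2% of the Mmp8-led and 0.251% of the immature cells (84.6%, 35.7% and 6.17% unthinned).

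Ccl3 had another course, with 52.7, 58.0, 45.1, 79.0 and 567 CPM over the same 5 clusters. Its early levels were above background in every run of the immature cells (32.0 to 94.3 CPM). Thinned, 4.08% of immature neutrophil-like cells had a Ccl3 UMI against 0.329% of late erythroid-like cells (23.6% and 1.77% unthinned). Ccl4 was at 51.5, 14.2, 6.18, 15 and 258 CPM, so that in the immature cells it was at the background level. Ccl9 stayed between 1.20 and 14.9 CPM from the Fcnb-led precursors to the mature cells, after 34.7 CPM in the progenitors. Ccl2 was 27.4 CPM and Ccl5 4.27 CPM in the mature cells.

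**Figure D4:**
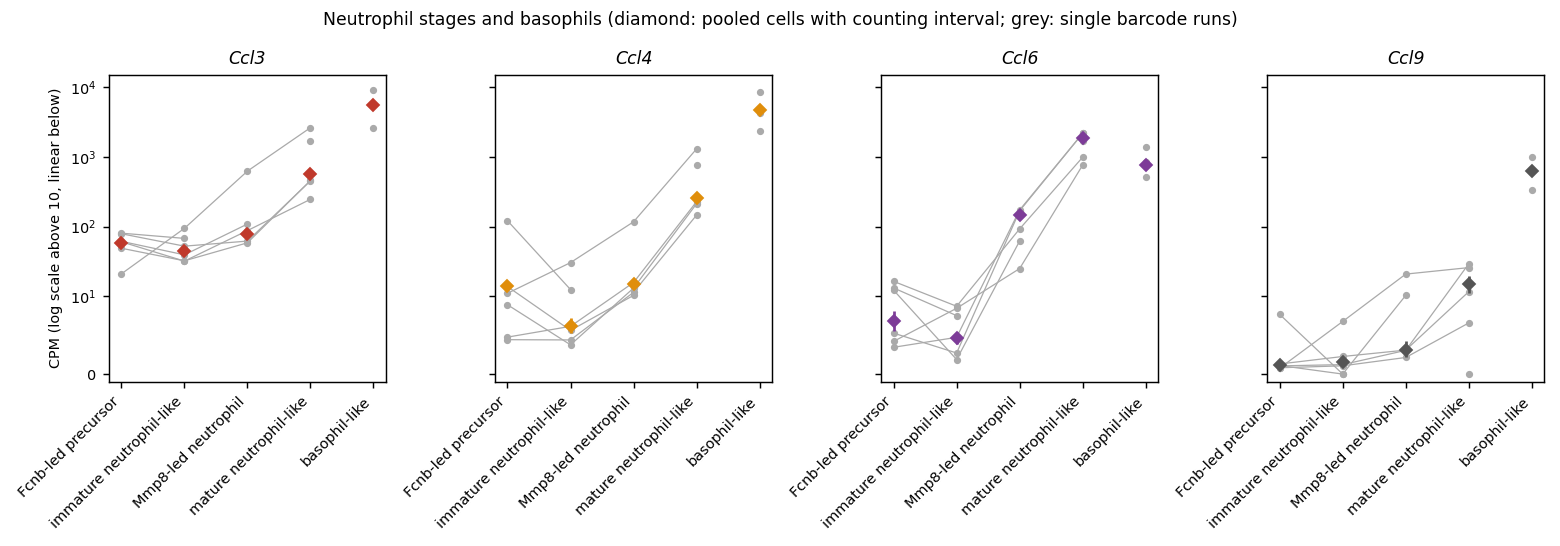
CPM of Ccl3, Ccl4, Ccl6 and Ccl9 over 4 neutrophil clusters and the basophil-like class, on an axis that is logarithmic above 10 and linear below. Diamonds with bars are pooled cells with 95% Poisson intervals, and grey points, joined within a run, are single runs. Ccl6 climbs from 4.59 CPM in immature to 1865 CPM in mature cells, while Ccl9 stays under 15 CPM.

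Mature against immature neutrophil-like cells, 4 genes passed 20 CPM and all 4 were higher. Ccl6, Ccl4 and Ccl2 passed through the mature cells alone, with 4.59, 6.18 and 1.89 CPM in the immature cells. The filter thus fixed their pooled direction, and Ccl3 alone could have gone either way. Of all genes 41.7% were past 2-fold, 18.8% higher and 22.8% lower. The log2 differences were 7.01 for Ccl6, 4.05 for Ccl4, 3.39 for Ccl3 and 1.65 for Ccl2, each positive in 5 of 5 runs. The Ccl2 call rested on 90 UMIs, and without run 7 the gene no longer reached 20 CPM. Both lists of response genes were also higher in the mature cells. Of 12 tested NF-kB response genes, 12 were past 2-fold (median 2.82, all genes -0.10), with Il1b at 7.24 and Cxcl2 at 5.79. Il1b is also a marker that named the mature class, and both genes were among its 10 leading genes. Their height there is thus no separate result. In the immature cells 9 genes of the list reached 20 CPM, and the other tested ones passed through the mature cells alone. Of 13 tested genes of the response to cell dissociation, 9 were past 2-fold (median 1.66), with Junb at 3.64 and Fos at 1.66. The part of dissociation in the chemokine levels was not tested. Mature cells with an Il1b UMI had 648 CPM of Ccl3 and 299 of Ccl4, against 170 and 57.1 CPM in those without. Their Ccl6 levels were closer, at 1937 and 1515 CPM.

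Basophil-like cells, rare granulocytes of allergic and helminth responses, numbered 126. Against mature neutrophil-like cells they were higher in Ccl9 (by 4.69), Ccl4 (by 4.14) and Ccl3 (by 3.23) and lower in Ccl6 (-1.30), 4 of 5 tested genes. Of all genes 59.2% were past 2-fold, 45.4% higher and 13.9% lower, and the median gene was higher by 0.82. Relative to that median the differences were 3.87, 3.32, 2.41 and -2.12. Ccl9 was at 634 CPM (986, 648 and 337 CPM in 3 runs) against 14.9 CPM in the neutrophils, and higher in 3 of 3 runs. It passed 20 CPM through the basophil-like cells alone, so the filter fixed its pooled direction. Ccl4 was higher in 3 of 3 runs and lost most with run 3 left out (3.41). Ccl3 was level in run 6 (-0.01) and higher in the other 2. Ccl6 was lower in each of runs 3, 4 and 6, but past 2-fold in run 4 alone. Its levels there were 1360, 830 and 516 CPM in basophil-like cells against 2160, 2156 and 759 CPM in the neutrophils.

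The basophil-like class was not uniform. Of its 126 cells, 46 were among the 6% with the highest doublet scores. Without the cells of high score, Ccl3 was 7482 CPM, Ccl4 6708 and Ccl9 929, and the Ccl6 difference shrank to -0.60. Eosinophil markers summed to 1451 CPM over the whole class, with 4 of 8 at 20 CPM or more, against 94.9 to 283 CPM in the 3 larger runs. The 110 cells without a Siglecf, Epx or Prg3 UMI had 5607 CPM of Ccl3, 4828 of Ccl4, 816 of Ccl6 and 630 of Ccl9, so the levels were as large without those cells. That gate was chosen after the values were seen.

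Ccl5, a T and NK cell product, was at 7428 CPM in T cell-like cells (interval 7356 to 7500). The lowest of 8 runs had 2416 CPM, the median was 6781 and the highest had 12957. Even the lowest run was above every other class, of which the next was the Rora-led lymphoid cluster at 380 CPM (1 run of sufficient size, 563 CPM). Its leading genes include Gata3, Areg and Icos. Then came the Tbc1d4-led cluster at 217 CPM (156 to 253 over 6 runs) and the Tnfsf9-led monocyte-like cells at 161 CPM. After thinning, 62.9% of T cell-like cells had a Ccl5 UMI (70.8% unthinned), against 0.912% of B cell-like cells (3.24% unthinned).

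Cells with Cd3 and Cd8a UMIs, 200 in number, had 14238 CPM of Ccl5, 1206 of Ccl4 and 499 of Ccl3. The 222 cells with Cd3 and Cd4 UMIs and no Cd8a had 2486, 205 and 87.4 CPM. The 114 cells with no Cd3 UMI and with an Ncr1, Klrb1c or Eomes UMI, genes of NK cells, had 4967, 1598 and 733 CPM. Pooled, Ccl5 was thus highest in the Cd8a gate, and Ccl3 and Ccl4 in the NK gate. Run 1 alone held at least 20 cells of both gates, and gave 15758 and 3649 CPM of Ccl5, 1202 and 2480 of Ccl4, and 349 and 1100 of Ccl3, in the Cd8a and NK gates. Over all runs of sufficient size the gates overlapped, with Ccl4 at 195 to 1956 CPM in the Cd8a gate and 572 to 2480 CPM in the NK gate, and Ccl3 at 0 to 1401 and 236 to 1100 CPM. Ccl5 was found in 90.5% of the Cd8a cells, 49.5% of the Cd4 cells and 95.6% of the NK-gated cells, with medians of 7171, 5066 and 4320 UMIs.

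T cell-like against B cell-like cells, all 3 genes that passed 20 CPM were higher. Ccl5 passed through the T cell-like cells alone (6.70 CPM in B cell-like cells), so the filter fixed its pooled direction. Of all genes 16.9% were past 2-fold, 10.2% higher and 6.73% lower. The differences were 8.80 for Ccl5, positive in 7 of 7 runs, 3.49 for Ccl4 and 2.82 for Ccl3. For Ccl3 and Ccl4, 6 of 7 runs were higher and run 8 was not (-2.04 and -0.06). In run 8 the B cell-like cells had 118 CPM of Ccl3 against 21.2 in its T cell-like cells. Without run 8 the differences were 4.03 for Ccl3 and 4.2 for Ccl4. Plasma cell-like cells, the antibody producers, had 2.04 CPM of Ccl3, 6.64 of Ccl4 and 11.4 of Ccl5.

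In classical monocyte-like cells Ccl5 was at 44.3 CPM, with a UMI in 83 of the 816 cells (10.2%). That 99.8% of its UMIs lay in 82 cells follows from this share. The same gene was at 37.9 CPM in Cd5l-led macrophage-like cells and at 52.3 CPM in Fcgr4-led phagocytes, with intervals of 30.4 to 46.7 and 45.2 to 60.3 CPM.

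Ccl6 and Ccl9 are adjacent, yet their ratio varied over classes. Mature neutrophil-like cells had 125 Ccl6 UMIs per Ccl9 UMI (interval 94.4 to 169), and the Mmp8-led cluster had 47.3. The counts gave 2.88 in immature neutrophil-like cells and 5.65 in Fcnb-led precursors. Both genes were at a few CPM there, the size of background, so these ratios are not read. The ratio was 10.7 in Cd5l-led macrophage-like cells, 2.24 in Fcgr4-led phagocytes, 1.19 in basophil-like cells and 1.0 in classical monocyte-like cells. At the other end, granulocyte-monocyte progenitor-like cells had 0.155 and stem or multipotent progenitor-like cells 0.0271. Runs of the mature neutrophil-like cells ranged from 29.3 to 327 and those of the stem class from 0.0141 to 0.0379. These are the 4 runs of each class with at least 50 UMIs of the pair and a Ccl9 UMI. Left out were run 7 of the mature cells (1673 CPM of Ccl6 and 0 of Ccl9) and run 3 of the stem class. The latter had 11.9 CPM of Ccl6 and 83.2 CPM of Ccl9. With or without these runs, the ends of this order did not overlap. Ccl9 in the Mmp8-led cluster (3.13 CPM) was also of background size. So was Ccl6 in the granulocyte-monocyte progenitor-like (5.38 CPM) and stem (3.83 CPM) classes, which leaves the size of those ratios uncertain.

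Ccl9 was thus the ligand of the pair found in progenitors, at 141 CPM in stem or multipotent progenitor-like cells, where Ccl6 was 3.83 CPM. Classical monocyte-like cells had 435 CPM of Ccl6 and 434 CPM of Ccl9, with Ccl9 between 343 and 504 CPM in 5 runs. Thinned, 33.5% of these cells had a Ccl6 UMI and 34.2% a Ccl9 UMI (88.2% and 92.3% unthinned).

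Ccl3 and Ccl4 also changed in proportion. There were 0.137 Ccl4 UMIs per Ccl3 UMI in immature neutrophil-like cells, 0.455 in mature ones, 0.719 in classical monocyte-like and 0.869 in basophil-like cells. T cell-like cells had 2.51, Fcgr4-led phagocytes 3.04, Cd5l-led macrophage-like cells 6.89 and plasmacytoid dendritic cell-like cells 9.79. Over runs the ratio was 0.743 to 0.925 in basophil-like cells and 8.10 to 25.8 in plasmacytoid dendritic cell-like cells. It was 1.33 to 6.5 in T cell-like cells, 1.36 to 3.92 in Fcgr4-led phagocytes and 1.46 to 9.14 in Cd5l-led macrophage-like cells. These ranges overlapped, and the Cd5l-led one reached that of the plasmacytoid dendritic cell-like cells. In the classical monocyte-like cells the ratio ran from 0.223 to 2.21 and so crossed 1. Each ratio compares 2 genes within a class, and only its change over classes is read. In the immature neutrophil-like cells Ccl4 was at the background level (6.18 CPM), so the size of that ratio is not read.

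**Figure D5:**
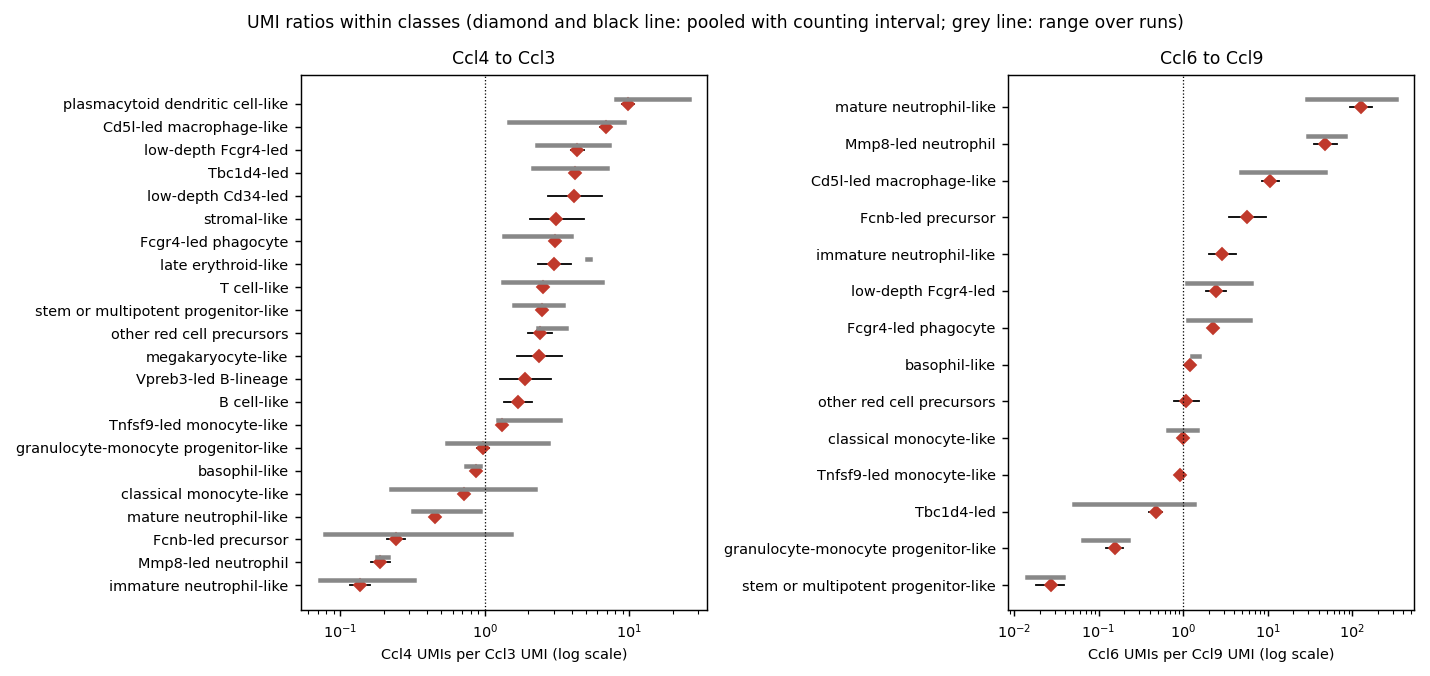
UMIs of Ccl4 per UMI of Ccl3 (left) and of Ccl6 per UMI of Ccl9 (right) within classes, on logarithmic axes. Diamonds and black lines are pooled cells with 95% intervals, and the dotted line marks 1. Grey lines are ranges over runs with at least 50 UMIs of the pair and some of the second gene. The immature neutrophil-like cells have the lowest Ccl4 to Ccl3 ratio shown (0.137, with Ccl4 at the background level) and the mature ones the highest Ccl6 to Ccl9 ratio (125).

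Single cells carried the genes together to different degrees. In basophil-like cells thinned to 1000 UMIs, 90.2% of those with a Ccl4 UMI had a Ccl3 UMI too. The share was 66.9% in Fcgr4-led phagocytes, 66.3% in mature neutrophil-like cells, 36.7% in T cell-like cells and 17.4% in Cd5l-led macrophage-like cells. In T cell-like cells, 93.3% of those with Ccl4 also had Ccl5. These shares follow the level of the second gene and are given as description.

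Of 13 other CC ligands, 10 were in the table and 4 reached 20 CPM in a class. Ccl8 and Ccl7 (the latter a monocyte attractant) were highest in the Cd5l-led macrophage-like cells at 440 and 159 CPM. For Ccl8, 66.7% of those UMIs came from run 1, which held 7 of these cells, and the 4 larger runs gave 71.3 to 188 CPM. Ccl12 was at 34.1 CPM in that class. Ccl1, a Ccr8 ligand, was at 64.9 CPM in the Rora-led lymphoid cluster. Against Fcgr4-led phagocytes, 2 of 3 tested ligands of this list were higher in the Cd5l-led cells and none was lower, where 8.87% of all genes were higher and 6.31% lower. Those 2 were Ccl8, higher in 4 of 4 runs, and Ccl7, higher in 3 of 4.

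Of the 10 CC receptors, 8 reached 20 CPM. Ccr2, the receptor of Ccl2, was highest in classical monocyte-like cells at 995 CPM (790 to 1121 over runs), the class that also led in Ccl2. Ccr1, which binds Ccl3, Ccl5, Ccl6 and Ccl9, was highest in mature neutrophil-like cells at 894 CPM and higher there than in immature cells by 3.68. Ccr3, the receptor of Ccl24, was at 383 CPM in Cd5l-led macrophage-like cells (261 to 528 over 4 runs), and at most 5.51 CPM in any other class. Its ligand gene was nearly absent from the table. Ccr9 was at 1336 CPM in plasmacytoid dendritic cell-like cells and Ccr7 at 413 CPM in B cell-like cells.

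Atypical receptors bind chemokines without the usual signal. Ackr1, the Duffy antigen of red cells, was at 48.0 CPM in late erythroid-like cells and 64.9 CPM in the other red cell precursors, with runs from 23.5 to 69.6 and 35.5 to 105 CPM. Ccrl2, which presents chemerin, was highest in mature neutrophil-like cells at 307 CPM, and Ackr4 in stromal-like cells at 90.9 CPM. Ackr2 and Ackr3 stayed under 20 CPM in every class.

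The patterns of the genes over 24 classes were compared as Pearson correlations of log2(CPM + 10). Points share runs and depth, so these values are descriptions with no test. Ccl3 and Ccl4 were most alike among the 6 (r = 0.87), while Ccl5 and Ccl6 were least (r = 0.01). Of 6699 other genes, the closest to Ccl2 were Pid1 (r = 0.90), Csf1r and Fam234a. To Ccl3 they were Tnf (r = 0.83), Il3ra and Tyrobp, and to Ccl4 they were Cd244 (r = 0.86), Il3ra and Pepd. Klrk1 (r = 0.90), Ms4a4b and Tcf7 were closest to Ccl5. For Ccl6 they were Nlrp3 (r = 0.92), Tlr13 and Lgals3, and for Ccl9 they were Il3ra (r = 0.86), Cebpa and Ms4a6c.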

How the data were processed

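Erythroblastic island cells were sequenced as 10x Genomics 3′ libraries. The authors deposited raw UMI counts per gene and cell in 1 table, with no map from cells to libraries. Cell Ranger 5.0.0, Seurat 3.1.5 and the mm10 genome are listed in the submitters' processing notes. The authors' own filters on cells were not given. The 24942 cells held 248384567 UMIs, and rare genes are limited by counting error.

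Cells had to have 200 genes or more and no more than 20% mitochondrial UMIs, and every deposited cell did. Scanpy 1.11.5 scaled cells to 10000 UMIs and chose 2000 variable genes, of which 17 CC ligand and receptor genes were taken out, leaving 1983. With 30 components and 15 neighbours, Leiden clustering at resolution 1 (leidenalg 0.10.2) gave the clusters. CPM was computed from the summed counts of each class, with exact Poisson 95% intervals from scipy 1.17.1. No test between groups was possible in 1 pooled sample. The comparison of classes was tested on simulated data.

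The chemokines and the gene lists were chosen with earlier results of these data known. The genes named are the 7 chemokines, the 3 most similar genes of each of 6, up to 4 members of each list by level, and markers of each class. Ccr3, Ackr2 and Ackr3 fall outside this rule and were added after their values were seen. Alternatives were resolutions 0.5 and 2, at least 500 genes with at most 10% mitochondrial UMIs, cells of high doublet score left out, CC genes kept in the clustering, globin left out of totals, each run or all repeated barcodes left out, 1 CPM added and no filter on level. Centring on the median gene and leaving out basophil-like cells with eosinophil markers were chosen after seeing the data.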

Additional observations from a re-analysis of the deposited data

How the results depend on the processing

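No paired analysis was possible because the columns of the table carry no library, group or replicate number. Most alternatives kept the results. The members past 2-fold stayed within 1.5 times the reported count in every comparison that an alternative could give. Leaving out 1 run at a time gave 3 to 4 genes between the Cd5l-led and Fcgr4-led clusters and 3 to 4 between Cd5l-led cells and classical monocytes. It gave 3 to 5 between neutrophil stages, 4 to 4 for basophils and 3 to 3 for T against B cell-like cells. It gave 6 to 7 of 7 genes with the reported highest class, and -2.46 to -2.25 for Ccl3 between the Cd5l-led and Fcgr4-led clusters. At resolution 0.5 only 3 of 7 genes kept their highest class, and 4 of the 5 comparisons could not be made, because the basophil-like, mature neutrophil-like and Cd5l-led macrophage-like classes had no clusters of their own. With CC genes in the clustering, Ccl4 was highest in Fcgr4-led phagocytes, Ccl2 was higher in Cd5l-led than Fcgr4-led cells by 1.22, and Ccl5 higher than in classical monocytes by 1.80. The cause was not tested. Ccl9 passed 2-fold between neutrophil stages at resolution 2 (1.48), without run 4 (1.37) and with no level filter (1.11). For genes past 2-fold as reported, 307 of 309 recomputed differences kept their sign and call and 2 fell short of the call. The low-depth clusters had medians of 813 and 755 UMIs per cell.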
